A study of Mus musculus with 2 samples.

Results

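Arg1-high C1q-low macrophages were 370 of the 14899 cells of the series, and 370 of the 10491 that carried 1 sample tag and passed the filters. The members were chosen by their own Arg1, C1q, T cell receptor and Cxcr2 counts: a cell belonged to the class when it held at least 10 molecules of Arg1, under 10 molecules of C1qa, C1qb and C1qc together, at most 1 molecule of Cd3e, Cd3d and Trac together and no molecule of Cxcr2. Cells under 200 detected genes, or above 25% of molecules from mitochondrial genes, had been left out. The class was drawn from leukocytes of subcutaneous B16F10 melanomas, a pigmented tumour line of C57BL/6 mice, sorted for CD45 and read by whole transcriptome single-cell sequencing on the BD Rhapsody system. The groups of the study were tumours grown from Tyr knockout cells, from Oca2 knockout cells and from wildtype (WT) cells, in the flank of female C57BL/6 mice, so the knockouts lay in the tumour cells and the sequenced leukocytes came from hosts with no stated alteration. The labels give n = 3 mice without saying whether per group, give no age and no clone of the knockout lines, name the making of cell suspensions for Tyr knockout and WT tumours only, and do not say that single mice were tagged apart. Groups were marked with sample tags and pooled for capture. Tags 8, 9 and 10 were found in the data and the labels tie none of them to a genotype, so they are 3 samples of unnamed genotype, and no genotype was compared with another.

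Macrophages in tumours arise largely from blood monocytes and take up different programmes. Arg1 encodes arginase 1, which splits arginine into ornithine and urea and so takes a substrate away from nitric oxide synthesis and from T cells, while C1qa, C1qb and C1qc encode the recognition subunit of complement that many tissue and tumour macrophages make. Cells short of oxygen stabilise hypoxia-inducible factor, whose targets include glycolytic enzymes, the glucose transporter gene Slc2a1 and the angiogenic factor gene Vegfa.

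The filtered cells of tags 8, 9 and 10 numbered 3336, 3486 and 3669, with medians of 3224.5, 3670.0 and 3565 molecules, and 26.2%, 17.4% and 14.9% of the tagged cells had exceeded the mitochondrial limit. No cell index was repeated. In all results below the levels of a gene are molecules summed over the cells of a class in 1 tag, per 1000000 molecules of that class and tag (CPM), 3 values in a row stand for tags 8, 9 and 10, and ± is the SD over the 3 tags (n = 3). The sums rested on 1227479, 701305 and 1031552 molecules of Arg1-high C1q-low cells. Intervals cover counting error only, and a lower sum cannot tell fewer cells with a transcript from less of it per cell.

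The label was checked against marker genes of each leukocyte and tumour cell type. Arg1-high C1q-low cells held all 6 general macrophage markers, among them 1065 CPM of Cd68, 383 CPM of Csf1r, 283 CPM of Fcgr1, 155 CPM of Adgre1 and 27.0 CPM of Mertk, and 98.1% of the cells had at least 2 molecules of this list. The 4 monocyte markers together came to 1077 to 2382 CPM over the tags, against 6214 to 8934 CPM in the monocytes described below. Lists of other cell types summed to far less, between 44.8 and 65.6 CPM for 4 neutrophil genes (S100a8 at 10.1 CPM), between 53.8 and 99.8 CPM for 4 melanoma genes and between 43.6 and 82.7 CPM for 3 endothelial genes. The 4 T cell genes came to between 14.5 and 18.5 CPM, 4 NK cell genes to between 5.70 and 42.8 CPM, 4 B cell genes to between 9.78 and 28.1 CPM and 4 fibroblast genes to between 4.89 and 91.3 CPM. The class rule had already left out cells by their T cell receptor and Cxcr2 molecules. Low T cell and neutrophil sums therefore follow in part from that rule. Of 3 plasmacytoid dendritic cell genes, between 132 and 214 CPM together, Bst2, which macrophages also express, gave nearly all, and 5 dendritic cell genes came to between 5.70 and 85.3 CPM, most of it Ccr7 in tag 10. Eosinophil genes came to at most 7.33 CPM and mast cell or basophil genes to at most 11.4 CPM. Ncr1, Klrb1c, Epx, Ms4a2, Mcpt8 and Dcn, which define NK cells, eosinophils, basophils or mast cells and fibroblasts, were at 0. The general macrophage markers did not set the class apart from the monocytes, with sums of 2307 to 2565 CPM over the tags in Arg1-high C1q-low cells, against 2127 to 2562 CPM in monocytes, where Csf1r, Fcgr1 and Adgre1 stood higher, at 560 CPM, 350 CPM and 209 CPM. In tag 8 the monocyte list summed to 2382 CPM in the class and the macrophage list to 2328 CPM. The class held fewer monocyte marker molecules than the monocytes in each tag, but the monocytes were themselves chosen on Ly6c2 and Chil3. In all, 210 of the 370 cells stayed when every cell with 2 or more molecules of T, NK, B, melanoma, fibroblast, endothelial or neutrophil markers was left out.

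The class was present in each tag. It made up 161 of 3336 cells in tag 8 (4.83%, exact Clopper-Pearson 95% interval 4.12 to 5.61%), 88 of 3486 in tag 9 (2.52%, 2.03 to 3.10%) and 121 of 3669 in tag 10 (3.30%, 2.74 to 3.93%). Over the tags the share was 3.53%. Of all Arg1-high cells, 161 of 257 were C1q-low in tag 8 (62.6%), 88 of 182 in tag 9 (48.4%) and 121 of 247 in tag 10, the others being C1q-high. Tag 8 thus had the highest share by both denominators, with no test, since a tag is 1 sample and the mitochondrial filter took the largest share of cells from that tag. Cells above the Arg1 and below the C1q threshold numbered 389, of which 10 were left out for T cell receptor molecules and 10 for Cxcr2, with 1 counted in both.

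**Figure D1:**
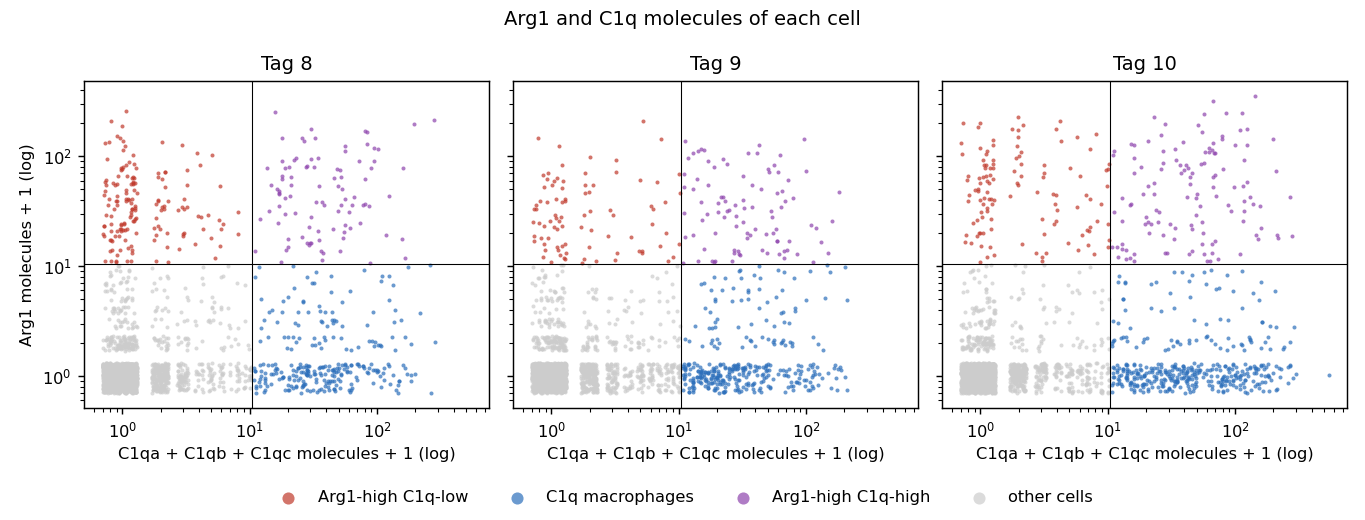
Molecules of Arg1 (vertical, plus 1, log scale) against the sum of C1qa, C1qb and C1qc (horizontal, plus 1, log scale) in each filtered cell with at most 1 T cell receptor molecule and no Cxcr2, 1 panel per tag, with points spread slightly and lines at the thresholds. Arg1-high C1q-low cells fill the upper left of each panel (161, 88 and 121 cells) and most of them, 216 of 370, had no C1q molecule at all.

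Arg1 and C1q chose the cells, so their levels are given as description. Arg1 (chr10:24915221-24927484, minus strand, GRCm38) stood at 5934, 4709.8 and 7435 CPM in Arg1-high C1q-low cells, against 84.7, 88.6 and 56.2 CPM in C1q macrophages. A cell held a median of 34.5 Arg1 molecules, with quartiles of 19 and 63.75 and a maximum of 256, and a median of 0 C1q molecules. No C1q molecule was seen in 216 cells, 1 to 4 in 111 and 5 to 9 in 43. Just inside the Arg1 threshold, 33 cells held 10 to 12 molecules, and just outside it 51 cells held 7 to 9. The cells just inside had 1968 CPM of Spp1, 1107 CPM of Fn1 and 406 CPM of Pdpn, and those just outside 1132 CPM of Spp1, 919 CPM of Fn1 and 353 CPM of Pdpn. Mmp12 and Cxcl3 were also higher inside, at 382 and 2238 CPM against 217 and 1853 CPM. Other genes taken up below were higher outside. Egln3, Ero1l, Slc2a1 and Thbs1 stood at 87.0, 314, 363 and 3867 CPM inside, and at 182, 647, 442 and 5993 CPM outside. At the C1q threshold 20 cells held 7 to 9 molecules on the inner side and 22 held 10 to 12 on the outer side. No gap in the counts therefore separated the class from its neighbours, and its borders are those of the thresholds.

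The other genes given with the label had higher summed levels than in C1q macrophages in each tag, and they too are described without a test. Spp1, which encodes the secreted glycoprotein osteopontin, stood at 2451, 2300.0 and 3672 CPM in Arg1-high C1q-low cells, against 714, 366 and 809 CPM in C1q macrophages. Fn1, the gene of the matrix protein fibronectin, stood at 2228, 895 and 2724 CPM in Arg1-high C1q-low cells, against 398, 222 and 238 CPM in C1q macrophages. Each tag had the higher level in Arg1-high C1q-low cells, with tag 9 lowest for both genes. Pdpn, the gene of the membrane glycoprotein podoplanin, stood at 728, 528 and 704 CPM in Arg1-high C1q-low cells, against 150.5, 100.1 and 81.7 CPM in C1q macrophages, and Mmp12, the gene of macrophage elastase, at 439.9, 727 and 529 CPM in Arg1-high C1q-low cells, against 119, 100.4 and 90.3 CPM in C1q macrophages. At least 1 molecule of Fn1 was seen in 83.2% of Arg1-high C1q-low cells, of Spp1 in 77.3%, of Pdpn in 71.1% and of Mmp12 in 25.1%. The same shares were 36.4%, 44.9%, 23.0% and 12.5% in C1q macrophages and 6.88%, 11.3%, 2.92% and 1.53% in T cells. In T cells stray molecules and the cells' own transcripts were not told apart. Median depth was 7639 molecules in Arg1-high C1q-low cells, 9071 in C1q macrophages and 3767 in T cells. With each cell thinned to 2000 molecules, Fn1 was seen in 69.9% of 359 Arg1-high C1q-low cells, 20.3% of 973 C1q macrophages and 3.07% of 1953 T cells. The transcripts were unevenly shared among cells, which were ranked for each gene by its own molecules. The top 10% of Arg1-high C1q-low cells carried 87.5% of the molecules of Mmp12, 53.1% of Spp1, 43.5% of Fn1 and 40.1% of Pdpn. In C1q macrophages these shares were higher, at 97.6%, 82.5%, 76.8% and 82.2%.

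Cells with more Arg1 differed from those with less along several of the genes described here. Thbs1, the gene of the matrix glycoprotein thrombospondin 1, stood at 5480.3 CPM in the 95 cells with 10 to 19 Arg1 molecules, 6896 CPM in the 145 with 20 to 49, 9532 CPM in the 88 with 50 to 99 and 8995 CPM in the 42 with at least 100. Fn1 stood at 1182, 1419.6, 2271 and 4253 CPM in the same order. The MHC class II gene H2-Aa ran the other way, at 1594, 1173, 1011 and 553 CPM. Spp1 and Mmp12 followed no steady order, at 1535, 2848, 2159 and 5425 CPM and at 475, 519, 734 and 359 CPM. These are sums over cells of all 3 tags whose median depth also differed, at 5954, 6723, 8530.0 and 11910.0 molecules, so the order is a description and depth moved with it. The mix of tags moved too, since tag 9, the lowest tag for Fn1, gave 32, 33, 19 and 4 of the cells.

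The main question was how these cells differ within each tag from C1q macrophages, the 1007 cells (273, 339 and 395) with at least 10 C1q molecules, under 10 of Arg1 and the same filters. Among the genes called higher in Arg1-high C1q-low cells were many of hypoxia and glycolysis and several of the matrix and of inflammatory cytokines, and among those called lower most of MHC class II presentation and several of the resident-type macrophage. Sums per tag and class were tested with edgeR's quasi-likelihood test with the tag as a block, and a gene was called when the Benjamini-Hochberg adjusted p was under 0.05 and the CPM ratio passed 2-fold, up or down alike, within each of the 3 tags. Of 8836 genes tested, 162 were called higher (1.83%) and 180 lower (2.04%), so 47.4% of the calls were higher. The median gene had a log2 CPM ratio of -0.25, and ratios below are to be read against that shift. With the 2-fold limit counted from the median gene, 63.0% of the calls were higher. The classes were cut on Arg1 and C1q, so a gene whose level goes with either follows the cut, and the test shows that a difference recurred in the 3 tags. The genes of the rule were left out of it.

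Many glycolysis and hypoxia genes were higher. Of 22 list genes tested, 11 were called higher (background 1.83%) and none lower, with a median log2 ratio of 1.27 against -0.25 for all genes. None of the 22 had a mean log2 ratio below 0. The 11 were Slc2a1, Gapdh, Pgk1, Eno1, Vegfa, Bnip3, Egln3, Ndrg1, Adm, Hilpda and Ero1l. Egln3 (chr12:54178981-54203860, minus strand), which encodes a prolyl hydroxylase that marks hypoxia-inducible factor for breakdown and is itself its target, stood at 194, 292 and 388 CPM in Arg1-high C1q-low cells, against 20.9, 18.8 and 22.4 CPM in C1q macrophages. The groups did not overlap, with a log2 ratio of 3.76 ± 0.48 (adjusted p = 6.4e-07, edgeR). Ero1l, the gene of an oxidase that forms disulfide bonds in the endoplasmic reticulum, stood at 685, 851 and 967 CPM in Arg1-high C1q-low cells, against 144, 163 and 158 CPM in C1q macrophages (log2 ratio 2.42 ± 0.18, adjusted p = 6.4e-07, edgeR). Bnip3, which encodes a mitochondrial protein of mitophagy, stood at 476, 508 and 603 CPM in Arg1-high C1q-low cells, against 102, 106 and 93.6 CPM in C1q macrophages (log2 ratio 2.39 ± 0.26, adjusted p = 1.3e-06, edgeR). In all 3 genes the lowest tag of Arg1-high C1q-low cells lay over 4 times above the highest tag of C1q macrophages. Adm, the gene of the vasodilator peptide adrenomedullin, was low in both classes, at 32.6, 55.6 and 32.0 CPM in Arg1-high C1q-low cells, against 3.65, 0.956 and 6.85 CPM in C1q macrophages (log2 ratio 3.75 ± 1.89).

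The sequences before 3 of these gene starts are shown because hypoxia-inducible factor binds a short core motif. The motif was searched as ACGTG or GCGTG on both strands, in the 250 bases before each RefSeq gene start (GRCm38.p6), and 20 of the 22 genes had such a window. At least 1 match was found in 22 of the 28 windows of the list (78.6%), and in 12679 of all 32851 windows (38.6%). The 28 windows came from 20 genes, and the windows were not matched for base composition, so the shares are a description. The list was drawn up for glycolysis and hypoxia and genes not called were counted, so the shares describe the list and not these cells. The windows below belong to the 3 matched genes of the list with the highest mean log2 ratio, 5′ to 3′ on the strand of the gene, with matches in capitals, where the reverse strand reads CACGT or CACGC. Each window ends just before the RefSeq start, and the last 13 bases of that of Bnip3 lie inside the gene as GENCODE places it. A match is a description of letters and not a site of binding.
Egln3 (chr12:54203875-54204124, minus strand): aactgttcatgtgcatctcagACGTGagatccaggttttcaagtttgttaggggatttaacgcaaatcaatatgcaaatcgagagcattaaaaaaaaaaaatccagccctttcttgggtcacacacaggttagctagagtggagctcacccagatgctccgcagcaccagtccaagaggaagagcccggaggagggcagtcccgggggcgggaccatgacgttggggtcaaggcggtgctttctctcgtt
Adm (chr7:110627407-110627656, plus strand): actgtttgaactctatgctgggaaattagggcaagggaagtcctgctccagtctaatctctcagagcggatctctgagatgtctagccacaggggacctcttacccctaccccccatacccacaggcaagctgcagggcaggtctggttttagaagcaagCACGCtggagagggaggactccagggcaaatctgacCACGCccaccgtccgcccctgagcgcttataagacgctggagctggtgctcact
Bnip3 (chr7:138909507-138909756, minus strand): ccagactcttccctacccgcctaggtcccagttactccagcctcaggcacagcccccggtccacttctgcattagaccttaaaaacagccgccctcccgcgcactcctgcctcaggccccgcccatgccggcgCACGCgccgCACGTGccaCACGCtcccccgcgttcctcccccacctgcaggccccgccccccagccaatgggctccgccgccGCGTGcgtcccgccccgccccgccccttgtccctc
Counted back from the gene start, the match before Egln3 began at base -229, those before Adm at -90 and -54, and those before Bnip3 at -117, -108, -107, -99 and -35, of which the matches at -108 and -107 overlap.

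Enzymes of glycolysis had smaller ratios than these 4 genes. Pgk1 (phosphoglycerate kinase) stood at 1601, 1659.8 and 1552 CPM in Arg1-high C1q-low cells, against 586, 610.1 and 511 CPM in C1q macrophages, a log2 ratio of 1.50 ± 0.09 (adjusted p = 3.5e-06, edgeR). Eno1 (enolase) had a log2 ratio of 1.46 ± 0.25, which is uncertain because near-identical copies of the gene can share its reads, and Gapdh one of 1.06 ± 0.11. Aldoa, Tpi1, Pgam1, Pkm and Ldha had ratios of 1.10, 1.09, 1.02, 0.98 and 0.88 with adjusted p from 1.8e-05 to 5.5e-05 (edgeR) but fell short of 2-fold in at least 1 tag. Slc2a1, the gene of the glucose transporter GLUT1, stood at 384, 415 and 560.3 CPM in Arg1-high C1q-low cells, against 121, 177 and 134 CPM in C1q macrophages (log2 ratio 1.65 ± 0.42), and Vegfa at 969, 938 and 1143 CPM in Arg1-high C1q-low cells, against 369, 362 and 364 CPM in C1q macrophages (log2 ratio 1.47 ± 0.15). Hilpda, which encodes an inhibitor of lipid droplet breakdown, stood at 1442, 1627 and 1326 CPM in Arg1-high C1q-low cells, against 530.1, 557 and 342 CPM in C1q macrophages. Hk2 and Pfkp, the genes of the enzymes hexokinase and phosphofructokinase, had log2 ratios of 0.12 and 0.24 and were not called. The calls of Gapdh and Ndrg1 were lost with each cell thinned to 2000 molecules, that of Gapdh also at a mitochondrial limit of 10% and in classes cut by molecules per 10000, and that of Adm without cells with markers of other types. With stricter thresholds, or with the 2-fold limit counted from the median gene, 17 of the 22 were called.

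Several genes of the extracellular matrix and its breakdown were higher. Besides the given markers, 6 of 14 list genes were called higher (background 1.83%) and none lower, with a median log2 ratio of 1.65. Thbs1 (chr2:118111876-118127133, plus strand) stood at 7789.9, 5018 and 9309 CPM in Arg1-high C1q-low cells, against 1503, 1627 and 1389 CPM in C1q macrophages, a log2 ratio of 2.25 ± 0.57 (adjusted p = 1.3e-05, edgeR). Mmp8, the gene of a collagenase best known from neutrophils, stood at 206, 214 and 160.0 CPM in Arg1-high C1q-low cells, against 15.9, 6.37 and 11.3 CPM in C1q macrophages (log2 ratio 4.19 ± 0.76, adjusted p = 1.3e-06, edgeR), while the neutrophil genes S100a8 and S100a9 were at 10.1 and 7.09 CPM. Mmp8 molecules were seen in 29.2% of Arg1-high C1q-low cells, 4.47% of C1q macrophages and 0.720% of T cells. Mmp13, a second collagenase gene, stood at 398, 375 and 280.2 CPM in Arg1-high C1q-low cells, against 42.2, 69.2 and 54.8 CPM in C1q macrophages. Serpinb2, the gene of an inhibitor of plasminogen activation, had a log2 ratio of 3.37 ± 1.07, and Mmp9, a gelatinase gene, one of 3.80 ± 1.68 at low and uneven levels of 34.2, 7.13 and 172 CPM in Arg1-high C1q-low cells, against 3.65, 1.27 and 3.31 CPM in C1q macrophages. Vcan, the gene of the proteoglycan versican, stood at 362, 139.7 and 466 CPM in Arg1-high C1q-low cells, against 73.4, 82.9 and 53.9 CPM in C1q macrophages, and was not called because tag 9 stayed under 2-fold. Plau, the gene of urokinase, stood at 449, 335 and 179 CPM in Arg1-high C1q-low cells, against 556, 681 and 568 CPM in C1q macrophages, and Timp2, the gene of a metalloproteinase inhibitor, had a log2 ratio of -1.70, neither called. Without cells with markers of other types, 3 of 13 tested were called higher and 1 lower, Mmp13 among those losing their calls. Without tag 8 or tag 10, 1 gene of the list was called lower.

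Inflammatory cytokine genes showed 7 calls higher among 16 tested (background 1.83%) and none lower, with a median log2 ratio of 1.18. The 7 were the neutrophil-attracting chemokine genes Cxcl1, Cxcl2 and Cxcl3, the cytokine genes Il1a and Il6, the eosinophil-attracting Ccl24 and Ptgs2, which encodes the inducible cyclooxygenase. Cxcl3 (chr5:90786103-90789600, plus strand) stood at 3902, 2475 and 4026 CPM in Arg1-high C1q-low cells, against 241, 165 and 166 CPM in C1q macrophages. The groups did not overlap, with a log2 ratio of 4.17 ± 0.37 (adjusted p = 1.6e-07, edgeR). Il6 stood at 374, 259.5 and 585 CPM in Arg1-high C1q-low cells, against 57.1, 84.5 and 62.8 CPM in C1q macrophages (log2 ratio 2.52 ± 0.82, adjusted p = 3.5e-05, edgeR). Il1a stood at 1822, 1747 and 1559.8 CPM in Arg1-high C1q-low cells, against 457, 423 and 299.6 CPM in C1q macrophages (log2 ratio 2.14 ± 0.21, adjusted p = 1.3e-06, edgeR), and Ptgs2 at 5212, 5726 and 5139 CPM in Arg1-high C1q-low cells, against 1278, 1912 and 1179 CPM in C1q macrophages (log2 ratio 1.91 ± 0.29). Il6 was seen in 38.6% of Arg1-high C1q-low cells, 16.8% of C1q macrophages and 2.88% of T cells, with 70.6% of the molecules of the first class in its top 10% of cells. Other members were not called. Tnf, Ccl2, Ccl4 and Ccl7, genes of a cytokine and of monocyte and T cell attractants, had log2 ratios of 0.47, 0.24, -0.02 and -0.17, and Il1b one of 1.16 ± 0.21 that missed 2-fold in a tag. Cxcl2 lost its call without cells with markers of other types, and Ccl24 also after thinning.

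Metal and redox genes were higher in 3 of 14 tested (background 1.83%), with a median log2 ratio of 0.71. Slc7a11, the gene of the cystine transporter, stood at 362, 315 and 398 CPM in Arg1-high C1q-low cells, against 77.7, 90.8 and 54.3 CPM in C1q macrophages (log2 ratio 2.30 ± 0.54, adjusted p = 1.2e-05, edgeR). Mt2, a metallothionein gene, stood at 692, 790.0 and 2408 CPM in Arg1-high C1q-low cells, against 143, 105 and 118 CPM in C1q macrophages (log2 ratio 3.17 ± 1.06), with tag 10 about 3 times the other tags, and Gsr, the gene of glutathione reductase, had a log2 ratio of 2.01 ± 0.57. Hmox1, the gene of haem oxygenase, stood at 2455, 2262 and 5011 CPM in Arg1-high C1q-low cells, against 1442, 623 and 1006 CPM in C1q macrophages and was not called because tag 8 stayed under 2-fold. Nqo1, another target of the same stress response, had 0, 0 and 1.94 CPM. In thinned cells 6 of 13 were called higher, without cells with markers of other types 5 of 13, and relative to the median gene 5 of 14.

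Arginine and polyamine genes other than Arg1 showed 1 call among 11, against backgrounds of 1.83% higher and 2.04% lower. Nos2, which encodes the inducible nitric oxide synthase, an enzyme that uses the same substrate as arginase, stood at 35.0, 202 and 192 CPM in Arg1-high C1q-low cells, against 7.31, 62.8 and 20.8 CPM in C1q macrophages, with a log2 ratio of 2.39 ± 0.77 (adjusted p = 8.2e-05, edgeR). Each tag had the higher level in the class chosen for Arg1, although tag 8 of that class lay below tag 9 of C1q macrophages. Arg2, the gene of mitochondrial arginase, had a log2 ratio of 1.15 ± 0.52 and was not called. Without tag 9, 3 of the 11 were called higher. Odc1, Srm and Sms, genes of polyamine synthesis, had ratios of 0.17, -0.64 and 0.27. Among 7 tested targets of the amino acid stress factor ATF4, Ddit4 was higher and Psat1 lower, while Atf4 had a log2 ratio of 0.03 ± 0.11. Psat1 lost its call in 4 settings and Ddit4 in 1, without cells with markers of other types.

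MHC class II presentation was the list with the most genes lower, 8 of 11 (background 2.04%) with a median log2 ratio of -1.92 and no gene higher. H2-Aa (chr17:34282744-34287823, minus strand) stood at 1158, 1426 and 838 CPM in Arg1-high C1q-low cells, against 3544, 5691 and 5389.8 CPM in C1q macrophages. The log2 ratio was -2.10 ± 0.54 (adjusted p = 3.2e-05, edgeR), and H2-Ab1 and H2-Eb1 had ratios of -1.96 ± 0.45 and -2.32 ± 0.50. Cd74, the gene of the invariant chain that escorts MHC class II, stood at 1853, 2479.7 and 1366 CPM in Arg1-high C1q-low cells, against 5088, 7701 and 7218 CPM in C1q macrophages (log2 ratio -1.83 ± 0.50). Ciita, the gene of the transactivator of the MHC class II genes, was low in both classes, at 4.89, 4.28 and 4.85 CPM in Arg1-high C1q-low cells, against 21.6, 42.7 and 48.9 CPM in C1q macrophages (log2 ratio -2.93 ± 0.68, adjusted p = 2.1e-04, edgeR). H2-DMa and H2-DMb1, genes of the peptide exchanger, were lower at log2 ratios of -1.92 and -1.97. The costimulatory ligand genes Cd80 and Cd86 were not called, with log2 ratios of 0.34 and -0.17. H2-Aa molecules were seen in 60.5% of Arg1-high C1q-low cells, 92.2% of C1q macrophages and 40.4% of T cells, which should lack it. With cells thinned to 2000 molecules these shares were 38.7%, 83.8% and 26.6%. Markers of other MHC class II cells moved the same way. The 4 B cell genes summed to between 9.78 and 28.1 CPM in Arg1-high C1q-low cells and between 49.6 and 68.8 CPM in C1q macrophages, and the 5 dendritic cell genes to between 5.70 and 85.3 CPM and between 85.4 and 135 CPM, and 8 of 11 genes tested were called lower without cells with 2 or more molecules of B cell or the other types' markers. The part of dendritic cells was not tested.

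The interferon genes that were called were lower. Of 12 interferon gamma response genes, 2 were called lower (background 2.04%) and none higher, with a median log2 ratio of -1.27. Of 10 type I interferon response genes 1 was lower, Ifit3, with a median of -0.77. Cxcl9, the gene of a T cell attractant, stood at 10.6, 212 and 80.5 CPM in Arg1-high C1q-low cells, against 157, 704 and 703 CPM in C1q macrophages (log2 ratio -2.92 ± 1.10, adjusted p = 1.0e-04, edgeR), lower within each tag though the ranges over tags overlapped, and Iigp1, a GTPase gene, at 2.44, 8.56 and 8.72 CPM in Arg1-high C1q-low cells, against 32.2, 134 and 153 CPM in C1q macrophages (log2 ratio -3.94 ± 0.21). Cxcl10, from the same pathway, had a log2 ratio of -0.35 ± 0.68 and was not called. The calls of Cxcl9 and of the MHC list's Cd40 were lost without the tag block. Without tag 8, 7 of the 12 interferon gamma genes and 3 of the 10 type I genes were called lower, and without tag 10, 2 type I genes. In thinned cells the counts were 5 and 4, and without cells with markers of other types, where Ifit3 lost its call, 6 of 12 and 3 of 9.

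Resident-type macrophage genes were lower in 5 of 14 tested (background 2.04%) and higher in 1 (background 1.83%), with a median of -0.78. Ccl8, the gene of a monocyte attractant, stood at 8.96, 22.8 and 32.0 CPM in Arg1-high C1q-low cells, against 349.8, 555 and 529 CPM in C1q macrophages (log2 ratio -4.65 ± 0.62, adjusted p = 6.4e-07, edgeR). Selenop, which encodes a selenium carrier, stood at 336, 339 and 592 CPM in Arg1-high C1q-low cells, against 1773, 1122 and 1729.9 CPM in C1q macrophages (log2 ratio -1.89 ± 0.45), and Cd72, Gas6, which encodes a ligand of the receptor Axl, and Cx3cr1, the fractalkine receptor gene, had ratios of -3.08, -2.78 and -2.73. The gene called higher was F13a1, which encodes the clotting factor XIII A chain, at a log2 ratio of 1.22 ± 0.26. Mrc1, Maf, Stab1 and Folr2, which are also markers of resident-type cells, had ratios of -0.63, -0.42, -0.25 and -0.48 and were not called. Gas6 and Cx3cr1 lost their calls without cells with markers of other types, and F13a1 in 4 settings. Without tag 8, 3 genes of the list were called higher.

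Genes often tied to alternative activation, as Arg1 is, were lower or not called. Of 10 tested, 3 were lower (background 2.04%) and none higher, with a median of -1.05. Mgl2, a lectin gene, stood at 8.15, 21.4 and 32.0 CPM in Arg1-high C1q-low cells, against 62.4, 126 and 120.0 CPM in C1q macrophages (log2 ratio -2.47 ± 0.52), and Ccl22 had a ratio of -2.62 ± 1.45. Retnla, whose product is secreted by macrophages answering interleukin 4, had 7.33, 1.43 and 0 CPM in Arg1-high C1q-low cells, against 82.7, 32.8 and 40.4 CPM in C1q macrophages. In classes cut by molecules per 10000, 1 of the 10 was called lower, with Mgl2 and Ccl22 losing their calls, and without cells with markers of other types 1 of 7. Chil3, the gene of a chitinase-like protein, stood at 490.4, 85.6 and 107 CPM in Arg1-high C1q-low cells, against 72.4, 101 and 91.0 CPM in C1q macrophages and was not called.

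The remaining lists had these calls, against backgrounds of 1.83% higher and 2.04% lower. Among complement and phagocytic receptor genes, Trem1 and Clec4d, which encode myeloid receptors, were higher at log2 ratios of 1.73 and 1.84, and Axl, C4b and Fcgr4 were lower. Trem1 lost its call without cells with markers of other types. Axl, the gene of a receptor for dying cells, stood at 20.4, 25.7 and 13.6 CPM in Arg1-high C1q-low cells, against 115, 145 and 221 CPM in C1q macrophages (log2 ratio -3.01 ± 0.88). Of 16 lipid-associated macrophage genes 2 were higher, Cd9 and Ctsl, and 1 lower, Lpl, with Trem2 at -0.15 ± 0.59 and Apoe at -1.26 ± 0.59 on the log2 scale, not called. Ctsl and Lpl lost their calls in classes cut by molecules per 10000, and without tag 9, 3 were lower. Of 12 suppressive and checkpoint genes, Ptges, the gene of prostaglandin E synthase, was higher at low levels (9.78, 37.1 and 26.2 CPM in Arg1-high C1q-low cells, against 0.997, 1.91 and 0.945 CPM in C1q macrophages), and Il18bp was lower. Il10 and Cd274, the genes of interleukin 10 and of the ligand PD-L1, had log2 ratios of -0.17 and -0.03. Of 10 proliferation genes 2 were lower, Birc5 and Ccnb2, both at low levels, while without tag 9 there were 5 lower and without tag 8 there was 1. Of 10 macrophage identity genes 1 was lower, Adgre1, the gene of the surface antigen F4/80, at 141, 177 and 156 CPM in Arg1-high C1q-low cells, against 514, 404 and 518 CPM in C1q macrophages. Of 10 genes induced by tissue dissociation 1 was lower, Fos, at a log2 ratio of -1.23 ± 0.14. Relative to the median gene, Fos and Il18bp were no longer called.

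**Figure D2:**
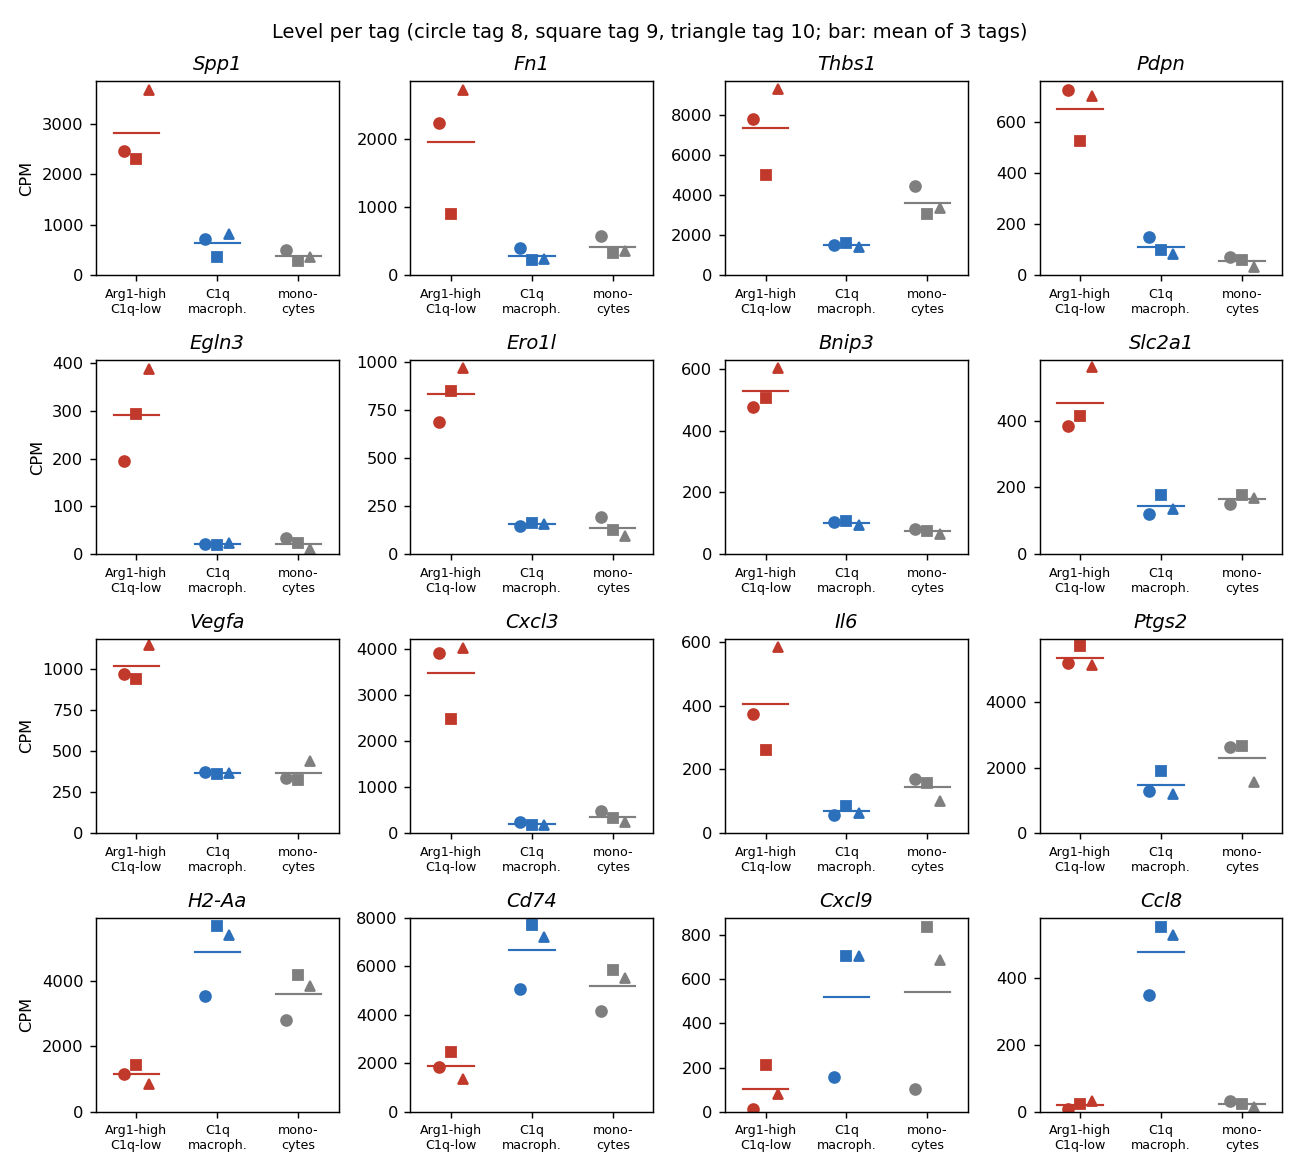
Level in CPM (vertical, each panel from 0) of 16 genes in Arg1-high C1q-low cells (red), C1q macrophages (blue) and Ly6c2 or Chil3 monocytes (grey), with a symbol for each tag and a bar for the mean of the 3. Egln3, Ero1l, Bnip3 and Cxcl3 sit above both other classes in every tag, and H2-Aa and Cd74 below both. Spp1, Fn1 and Pdpn are given markers.

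Outside the lists, the genes with at least 200 CPM in the higher class and the largest ratios were as follows. Higher were Ppbp, Inhba, Slpi, Rsbn1, Prdx6, Areg, F10 and Rgcc. Inhba, which encodes the activin A subunit, stood at 624, 1323 and 644 CPM in Arg1-high C1q-low cells, against 73.4, 271 and 82.7 CPM in C1q macrophages (log2 ratio 2.78 ± 0.43, adjusted p = 2.1e-06, edgeR). Slpi, the gene of a protease inhibitor, and Areg, the gene of the growth factor amphiregulin, had log2 ratios of 2.54 ± 0.71 and 2.08 ± 0.44. Ppbp, a chemokine gene best known from platelets, stood at 1259, 398 and 2096 CPM in Arg1-high C1q-low cells, against 136, 21.4 and 30.0 CPM in C1q macrophages, and Pf4, another platelet chemokine gene, which was not called, at 1901, 1439 and 3049.8 CPM in Arg1-high C1q-low cells, against 975, 430.0 and 579.5 CPM in C1q macrophages. Ppbp had a log2 ratio of 4.52 ± 1.48 (adjusted p = 3.5e-05, edgeR) and was seen in 34.3% of Arg1-high C1q-low cells, 6.95% of C1q macrophages and 2.52% of T cells, with 79.6% of the molecules of the first class in its top 10% of cells. Of 5 platelet genes in the table, a list added after seeing these values, Itga2b and Treml1 had 1 molecule each in the class and Gp1bb, Tubb1 and Gp6 none. The 5 genes summed to at most 1.42 CPM in a tag of C1q macrophages too. Whether platelets were a source of the Ppbp molecules was not tested. Lower were AW112010, Ccl12, Pltp, Clec12a, Gdf15, Aif1, Clec4a3 and Dusp2. Gdf15, the gene of a stress-induced growth factor of the same family as Inhba, stood at 66.0, 64.2 and 76.6 CPM in Arg1-high C1q-low cells, against 265, 249.6 and 288 CPM in C1q macrophages (log2 ratio -1.96 ± 0.05, adjusted p = 1.2e-05, edgeR), and Aif1, the gene of the macrophage protein Iba1, at 177, 212 and 132 CPM in Arg1-high C1q-low cells, against 548, 739.8 and 705 CPM in C1q macrophages. Without cells with markers of other types Areg, F10, Ccl12 and Gdf15 lost their calls. Ccl12 also lost its call in 3 other settings, and Clec12a with stricter thresholds.

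**Figure D3:**
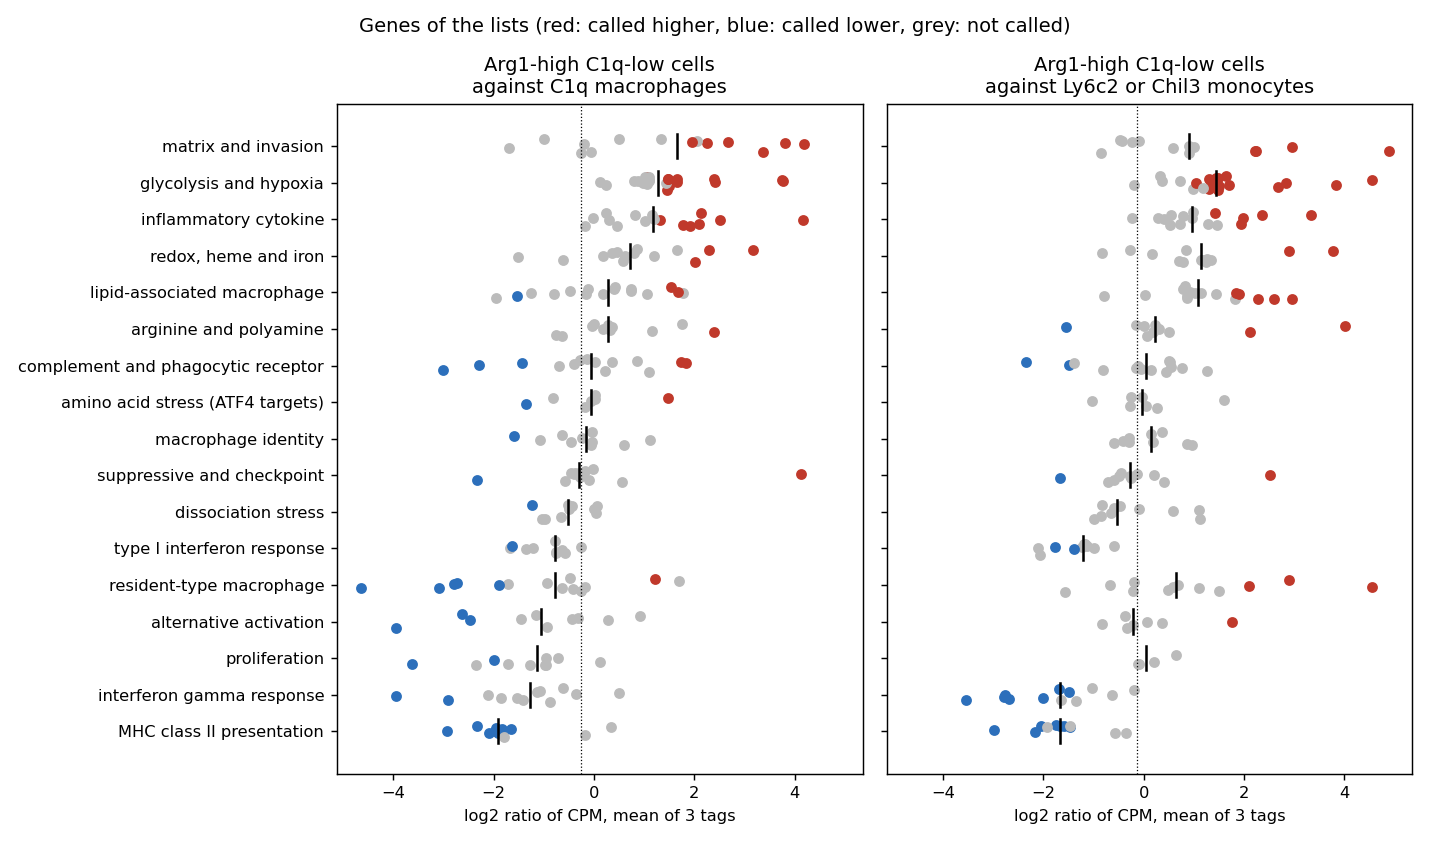
Mean over 3 tags of the log2 CPM ratio (horizontal) for the tested genes of 17 lists (1 row each), against C1q macrophages on the left and against monocytes on the right. Red points were called higher in Arg1-high C1q-low cells, blue lower and grey not called, black ticks are list medians and the dotted line is the median of all genes tested (-0.25 and -0.12). The rows for matrix, for glycolysis and hypoxia and for inflammatory cytokines have medians right of the dotted line in both panels, and those for MHC class II and interferon gamma left of it.

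A comparison with monocytes asked how the class differs from phagocytes that also hold fewer than 10 C1q molecules a cell. Monocytes were 729 cells (180, 256 and 293) with at least 5 molecules of Ly6c2 and Chil3 together, at least 5 of Lyz2, no Siglech or Ncr1 and under 10 each of Arg1 and C1q. Among the calls were 16 of 22 glycolysis and hypoxia genes, higher, and 7 of 11 MHC class II and 7 of 12 interferon gamma genes, lower. Of 7470 genes, 184 were called higher (2.46%) and 160 lower (2.14%), and the median gene had a log2 ratio of -0.12. Without tag 8, 298 were higher and 313 lower. Median depth was 7639 molecules in Arg1-high C1q-low cells and 6337 in monocytes. The genes of either rule were left out. As above, a gene whose level goes with one that cut the classes, here also Ly6c2, Chil3 or Lyz2, follows the cut.

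Of the 22 glycolysis and hypoxia genes, 16 were higher than in monocytes (background 2.46%) and none lower, with a median log2 ratio of 1.44. Egln3 stood at 194, 292 and 388 CPM in Arg1-high C1q-low cells, against 33.3, 22.5 and 10.1 CPM in monocytes, a log2 ratio of 3.84 ± 1.37 (adjusted p = 3.7e-04, edgeR), and Bnip3 at 476, 508 and 603 CPM in Arg1-high C1q-low cells, against 80.4, 75.7 and 64.6 CPM in monocytes (log2 ratio 2.84 ± 0.34). Aldoa, Tpi1, Pgam1, Ldha and Mif, which fell short of 2-fold in a tag against C1q macrophages, passed here, at ratios of 1.48, 1.44, 1.30, 1.05 and 1.65. Slc16a3, the lactate exporter gene, had a log2 ratio of 0.32 ± 0.22 and was not called. All 11 genes called against C1q macrophages were called here too, Slc2a1, Gapdh, Pgk1, Eno1, Vegfa, Bnip3, Egln3, Ndrg1, Adm, Hilpda and Ero1l. Ldha lost its call in classes cut by molecules per 10000. The 2 comparisons share the Arg1-high C1q-low cells, so they are not separate evidence.

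Most genes of the MHC class II and interferon gamma lists were called lower than in monocytes, and none of them higher. Of 12 interferon gamma genes 7 were lower (background 2.14%), with a median of -1.67, and of 11 MHC class II genes 7, with a median of -1.67. H2-Aa stood at 1158, 1426 and 838 CPM in Arg1-high C1q-low cells, against 2790.0, 4173 and 3849.5 CPM in monocytes (log2 ratio -1.67 ± 0.48, adjusted p = 4.7e-04, edgeR). Gbp2, an interferon-induced GTPase gene, stood at 70.1, 178 and 30.1 CPM in Arg1-high C1q-low cells, against 231, 865 and 505 CPM in monocytes and had a log2 ratio of -2.69 ± 1.23. The calls of Cxcl9 and Gbp5 were lost without the tag block. Of 10 type I interferon genes 2 were lower, Ifit3 and Irf7, both lost in thinned cells.

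Other lists gave these counts, against backgrounds of 2.46% higher and 2.14% lower. Lipid-associated genes were higher in 5 of 16, Gpnmb, Cd36, Cd9, Ctsl and Abca1, with a median of 1.08. Cd36, a scavenger receptor gene, stood at 861, 941 and 1640.2 CPM in Arg1-high C1q-low cells, against 213, 99.3 and 136 CPM in monocytes (log2 ratio 2.95 ± 0.83, adjusted p = 2.4e-04, edgeR). Resident-type genes had no call lower and 3 higher of 12, Pf4, Folr2 and Stab1, where Pf4 stood at 1901, 1439 and 3049.8 CPM in Arg1-high C1q-low cells, against 163, 64.4 and 62.5 CPM in monocytes (log2 ratio 4.54 ± 1.04). Hmox1 was higher too, at 2455, 2262 and 5011 CPM in Arg1-high C1q-low cells, against 410.3, 531 and 308 CPM in monocytes (log2 ratio 2.90 ± 1.01, adjusted p = 5.9e-04, edgeR). Matrix genes were higher in 4 of 13, Mmp8, Mmp13 and Serpinb2 among them, while Thbs1, at 7789.9, 5018 and 9309 CPM in Arg1-high C1q-low cells, against 4470.1, 3060.2 and 3359 CPM in monocytes, was under 2-fold in tags 8 and 9 and was not called. Inflammatory genes were higher in 5 of 16, namely Il1a, Cxcl1, Cxcl3, Ccl6 and Ccl24, and Il6, Cxcl2 and Ptgs2 were not called, at log2 ratios of 1.46, 0.96 and 1.27. Without tag 8, 9 of the lipid-associated and 6 of the 10 type I interferon genes were called, and 4 of 13 redox genes. These counts are given without direction. In that run 298 of all 7791 genes tested were called higher and 313 lower, so the backgrounds above do not apply to it. Gpnmb, Stab1, Ccl6 and Ccl24 lost their calls in classes cut by molecules per 10000.

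Outside the lists, genes with the largest ratios against monocytes included Ppbp, Rsbn1, Il7r, Egln1, Emp1, Inhba, Areg and Ecm1, higher, and Ifitm6, Ms4a4c, Ifi47, Naaa, Zbp1, Klra2 and Ms4a6b, lower. Areg, Ecm1 and Ifi47 lost their calls without cells with markers of other types, and Ifi47 also in thinned cells. Egln1, the gene of a second prolyl hydroxylase of hypoxia-inducible factor, stood at 204, 209.6 and 253 CPM in Arg1-high C1q-low cells, against 69.9, 52.6 and 40.2 CPM in monocytes (log2 ratio 2.07 ± 0.56, adjusted p = 2.7e-04, edgeR). Il7r, the gene of the interleukin 7 receptor, stood at 191, 307 and 201 CPM in Arg1-high C1q-low cells, against 58.5, 45.5 and 34.9 CPM in monocytes (log2 ratio 2.33 ± 0.55, adjusted p = 1.8e-04, edgeR).

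Cells with both Arg1 and C1q, 316 in all (96, 94 and 126), were the nearest neighbours, and few genes met the limits of a call. Of 7368 genes tested, 407 had an adjusted p under 0.05 (edgeR). That limit was met by 1233 of 8836 genes against C1q macrophages and 1269 of 7470 against monocytes. With 2-fold in each tag also required, 8 genes were called higher (0.109% of those tested) and 23 lower (0.312%). Of the calls 25.8% were higher, or 37.0% with the limit counted from the median gene. Without the tag block 1 gene was called in each direction, and without tag 8, 9 or 10 there were 28, 21 or 10 higher and 29, 62 or 12 lower, so these counts rest on the block and on single tags. The double-high cells were also deeper, with a median of 12109 molecules against 7639. Of 14 resident-type genes 6 were lower with a median log2 ratio of -1.43, namely Ccl8, Selenop, Gas6, Cd72, Cx3cr1 and Cbr2, none of which was called without the block, 3 with DESeq2 and 2 without cells with markers of other types. Selenop stood at 336, 339 and 592 CPM in Arg1-high C1q-low cells, against 1043, 778 and 1597 CPM in Arg1-high C1q-high cells (log2 ratio -1.42 ± 0.22, adjusted p = 3.2e-07, edgeR). Inhba was higher, at 624, 1323 and 644 CPM in Arg1-high C1q-low cells, against 141, 413 and 177 CPM in Arg1-high C1q-high cells (log2 ratio 1.90 ± 0.24, adjusted p = 3.0e-08, edgeR), as were Mmp8 and Slpi at log2 ratios of 1.92 and 1.47. Of the 14 genes named by the rules in this comparison, Slpi alone was still called without the block.

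None of the 22 glycolysis and hypoxia genes was called against the double-high cells, with a median log2 ratio of 0.28, and of 16 inflammatory genes none, with a median of 0.35. Egln3 stood at 194, 292 and 388 CPM in Arg1-high C1q-low cells, against 117, 126 and 191 CPM in Arg1-high C1q-high cells (log2 ratio 0.99 ± 0.24), under 2-fold in tag 8. Without tag 8, 1 gene of the list was called higher. Of the given markers, Spp1 had a log2 ratio of 0.56 ± 0.16, Fn1 0.11 ± 0.42 and Pdpn 0.21 ± 0.30. Mmp12 was higher in each tag, at 439.9, 727 and 529 CPM in Arg1-high C1q-low cells, against 293, 341 and 104 CPM in Arg1-high C1q-high cells. The 10% of cells with the most Mmp12 carried 87.5% and 89.7% of its molecules in these classes. MHC class II genes had a median of -0.51 with no call among 10. A gene that was not called here is not shown to be at the same level in both classes.

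Levels within the class are described by tag without a test, because each tag is 1 sample. Of 129 list genes with at least 200 CPM in a tag, 26 had a highest tag at least 2 times the lowest, and the median ratio was 1.43. The widest were Cxcl9 at 10.6 CPM in tag 8 (13 molecules), 212 in tag 9 and 80.5 in tag 10, and Cbr2, the gene of a carbonyl reductase, at 30.1, 34.2 and 226 CPM. Nos2 stood at 35.0, 202 and 192 CPM and Chil3 at 490.4, 85.6 and 107 CPM. Tag 8 was thus lowest for Cxcl9 and Nos2 and highest for Chil3. Of the Chil3 molecules of the class, 73.6% lay in the top 10% of its cells, a spread between cells that counting intervals do not cover. In C1q macrophages Cxcl9 was also lowest in tag 8, at 157, 704 and 703 CPM, whereas Chil3 was not highest there, at 72.4, 101 and 91.0 CPM.

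**Figure D4:**
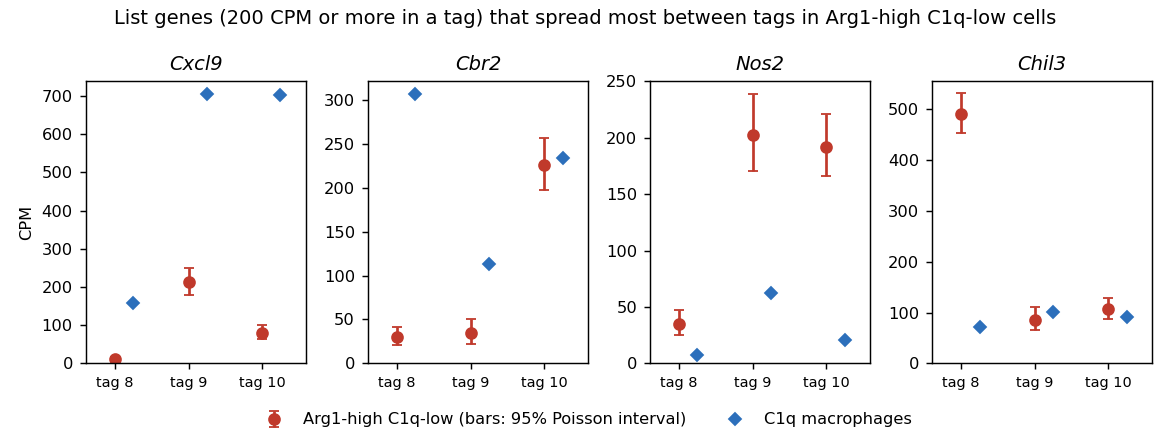
Level in CPM (vertical, each panel from 0) of the 4 list genes with the widest spread between tags among those with at least 200 CPM in a tag, in Arg1-high C1q-low cells (red, bars are 95% Poisson intervals of counting error) and C1q macrophages (blue), by tag. Cxcl9 is low in tag 8 in both classes. Chil3 stands at 490.4 CPM in tag 8 of Arg1-high C1q-low cells and at 72.4 CPM in tag 8 of C1q macrophages.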

How the data were processed

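Unique molecules were counted per cell and gene by the authors on GRCm38 with the GENCODE vM19 annotation in the Rhapsody Analysis Pipeline (BD WTA Multiplex, version 1.9.1), per the file headers, while the submitters' processing notes name GRCm39. The deposited table held raw counts of molecules for 14899 cells and 24510 genes, and a second deposited table held the sample tag call of each cell. It had 0 columns of other series. Cells called as multiplets (1448) or undetermined (361) were left out, and no doublet caller was run. Tags 8, 9 and 10 held 21662592, 21753076 and 23683689 molecules before filtering.

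Molecules were summed over the cells of each class and tag, so that a comparison had 6 sums. Nothing says that the mice behind a tag were kept apart. The p-values therefore set the class difference against its variation from tag to tag, and not against the spread between mice. Genes were filtered with filterByExpr, scaled by TMM and tested with edgeR 4.0.16 in R 4.3.3 with the tag as a block, since both classes of a tag came from the same tumours. The deviations of same-numbered sums correlated at 0.057, 0.150 and 0.051 against C1q macrophages, at 0.102, 0.103 and 0.014 against monocytes and at 0.160, 0.274 and 0.317 against double-high cells. A call needed an adjusted p under 0.05 (Benjamini-Hochberg over all genes tested) and a 2-fold CPM ratio in the same direction in each tag. The genes used to cut a class were not tested in its comparison.

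The text names the members of 17 gene lists, then per comparison up to 8 genes called in each direction outside the lists with at least 200 CPM in the higher class and the largest ratios, and by tag the 5 list genes with the widest spread among those with at least 200 CPM in a tag. Some genes that meet these rules are not reported here. The cell rule, the lists and the tests were chosen with earlier results of these data known. Alternatives were DESeq2 1.42.0, its size factors in edgeR, no filter, no tag block, each tag left out, cells thinned to 2000 molecules, classes cut at 20 molecules per 10000, stricter thresholds (Arg1 at least 20 and C1q under 5, with Arg1 under 5 in the other class), a mitochondrial limit of 10%, at least 500 genes, and no cells with 2 or more molecules of other cell types' markers. A 2-fold limit relative to the median gene was added after seeing the data. The procedure was tested on simulated data. Python 3.11.15, numpy 2.4.6, pandas 2.3.3, scipy 1.17.1 and matplotlib 3.10.9 were used. Gene positions are from GENCODE on GRCm38 and promoter windows from RefSeq on GRCm38.p6.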

Additional observations from a re-analysis of the deposited data

Results flagged for a closer look

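Cells that the sample tag caller set aside as multiplets are listed here because no comparison uses them. Of 1271 multiplets that passed the gene and mitochondrial filters, 38 met the Arg1 and C1q rule of the class (2.99%, exact Clopper-Pearson 95% interval 2.12 to 4.08%), and among the cells with 1 tag the share was 3.53%. The rule itself picked these cells, so their number is a description. None of the 175 filtered cells with an undetermined tag met it, for which the exact 95% interval reaches 2.09%. Multiplets within 1 tag carry a single tag and were not removed from the class, and their number was not tested.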

How the results depend on the processing

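No called gene that the naming rules pick changed sign under an alternative run that gave it a test value, but some runs left such genes untested. The balance of calls did change. Against C1q macrophages 47.4% of the calls were higher, against 53.9% with DESeq2 and 63.0% with the 2-fold limit relative to the median gene, and against monocytes 53.5% were, and 48.8% without tag 8. The share of Arg1-high C1q-low cells among filtered cells, 3.53%, was 4.08% at a mitochondrial limit of 10%, 4.24% in classes cut by molecules per 10000, 2.34% with stricter thresholds and 0 of the cells with an undetermined tag. Against C1q macrophages no setting moved the counts by more than 1.5 times. Leaving out a tag gave 194 to 225 genes higher and 219 to 260 lower, and of the 80 genes that the naming rules pick there 58 of 75 tested stayed called without cells with markers of other types, 68 of 73 in thinned cells and 74 or more under the other settings. Against monocytes, leaving out a tag gave 203 to 298 higher and 169 to 313 lower, both highest without tag 8, and of the 75 genes picked there 61 of 71 tested stayed called without cells with markers of other types, 63 of 69 in thinned cells, 68 in classes cut by molecules per 10000 and 71 or more under the other settings. Against double-high cells the 8 higher and 23 lower genes were 3 and 5 with DESeq2, 4 and 12 in thinned cells, 5 and 14 with stricter thresholds, 5 and 10 without cells with markers of other types, and 10 to 28 and 12 to 62 with a tag left out. The causes of these changes were not tested. Without the replicate block of tags, 162 genes were higher and 181 lower against C1q macrophages, 184 and 159 against monocytes, and 1 and 1 against double-high cells. The 3 tags, each 1 pool, limit every test, and low genes such as Adm, Mmp9 and Ciita rest on few molecules.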
